A study of Mus musculus with 24 samples.

Results

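The adrenal response of wild-type (WT) female mice to testosterone was read from 6 of the 24 arrays of a series on mouse adrenal glands, chosen by their labels: 3 arrays labelled F WT TESTO and 3 labelled F WT SHAM. The series covers WT C57BL/6 mice and mice null for Kcnk3, a gene for a two-pore potassium channel that sets the resting membrane potential of adrenal cortical cells. Females were sham or injected with testosterone, and males were sham or castrated, giving 8 groups of 3 one-colour Agilent arrays, each of total RNA from adrenal gland. All 6 arrays described here are labelled as female WT C57BL/6 adrenal, with testosterone or sham as the difference between the groups. High Y-linked signal on 5 of them, given below, goes against the female label. Age, testosterone dose and time under treatment are not given in the sources used here, nor is whether the females kept their ovaries. The labels do not say whether each array is 1 animal, so the p-values measure the spread between these samples, which may in part be technical. These are whole-gland samples, in which fewer cells of a type and less RNA per cell cannot be told apart.

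Testosterone acts through the androgen receptor, a nuclear receptor that binds DNA at hormone response elements, and cortical cells of the mouse adrenal carry it. The best known androgen effect in this gland is on the X-zone, an inner cortical layer next to the medulla that is kept in females and in castrated males and is lost in males at puberty. Outer layers make aldosterone (zona glomerulosa) and corticosterone (zona fasciculata) from cholesterol.

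A level below is the log2 signal of a probe minus that array's 75th percentile of signal, so 0 is a fairly bright probe and each unit is a doubling. Differences are testosterone minus sham, from a limma fit over all 24 arrays with 31045 features tested (1 probe per gene, or a probe with no gene name). A feature is called where the Benjamini-Hochberg adjusted p over all features is under 0.05, and adjusted p below always means this. Between 58.1% and 64.3% of spots were well above background on the 6 arrays, and no gene spot was saturated. The third array of each group was run on slide 4, from RNA with an integrity number of 3, against 7 to 8 for the other 4 arrays. Levels of array pairs among the 6 correlated between 0.958 and 0.988. All 8 adrenal cortex markers and all 15 chromaffin cell markers were well above background on all 6 arrays.

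The signal of Y-linked genes, as a share of that in WT sham males, was 1.21%, 25.4% and 45.5% on sham arrays 1, 2 and 3, and 32.9%, 19.3% and 36.0% on testosterone arrays 1, 2 and 3. On the 6 arrays of null females it was at most 0.180%. Sham array 1 was thus low, though above the null females, and the other 5 arrays of WT females were high. Kcnk3 was at 86.0%, 97.1% and 117% of the sham mean on the sham arrays and at 68.2%, 71.6% and 66.5% on the testosterone arrays, a difference of -0.53 ± 0.32 (SE) with an adjusted p of 1. WT males read from 42.4% to 70.3% of the same mean with testes and from 52.5% to 69.2% after castration. In null females the probe read from 5.63% to 29.9% of that mean, and whether it lies in the deleted part of the gene is not given in the sources used here.

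A group of 9 genes whose level is high in castrated null males was compared in the same arrays, because the labels do not account for the Y-linked signal. This list was drawn up with earlier results of these data known. The median of its members' signals, as a percentage of the castrated null male mean, was 8.45%, 7.85% and 8.32% on sham arrays 1, 2 and 3. On testosterone arrays 1, 2 and 3 it was 37.6%, 21.5% and 40.5%. The list is not particular to castrated null males: on null sham female arrays 1, 2 and 3 its median was 72.8%, 71.1% and 59.5%. By this median the 3 WT testosterone arrays were all above the WT sham arrays, and their order was the order of their Y-linked shares. Single members varied. On testosterone arrays 1, 2 and 3 Tafa2 kept that order (33.2%, 18.5% and 46.9%) and Npy1r did not (66.4%, 16.8% and 25.6%). The groups did not overlap for 7 of the 9, with testosterone higher, where 3.42% of all features were so. Bdnf was at 49.7% on sham array 3. On sham arrays 2 and 3, which also carried Y-linked signal, the median was as low as on sham array 1. Whether RNA from another group is present in the testosterone arrays was not tested, and the levels of castrated null males are given beside the genes that rose.

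**Figure D1:**
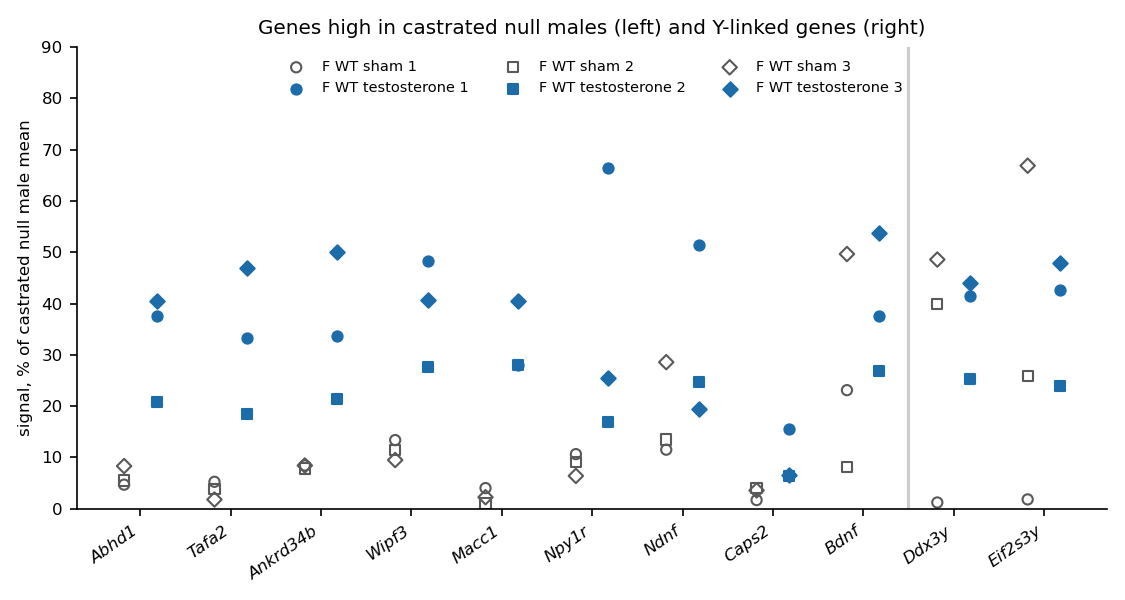
Signal of 9 genes that are high in castrated null males and of the Y-linked genes Ddx3y and Eif2s3y, in each array of WT females, as a percentage of the castrated null male mean (vertical axis, linear). Open symbols are sham arrays and filled symbols testosterone arrays, and the symbol's shape gives the replicate number. Abhd1 stands at 4.70% to 8.32% on the sham arrays and at 20.8% to 40.5% on the testosterone arrays, while the Y-linked genes are low on sham array 1 alone.

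In the comparison of testosterone with sham, 28 of 31045 features were called (0.0902%): 10 rose (0.0322%) and 18 fell (0.058%). The genes that fell included Mmel1, Gadl1, Clcn2, Sptlc2 and Mapk13. Those that rose included Macc1, Tafa2, Abhd1, Penk and Accsl. The median difference over all features was -0.03. At an unadjusted p under 0.05 there were 1855 features, and for 2363 features (7.61%) the groups did not overlap, 1061 higher (3.42%) and 1302 lower (4.19%). With the replicate number as a block over all 24 arrays, 86 features were called, and all 28 were among them. With the slide as a block, 136 were called. Fitted on the 6 arrays alone, with 4 residual degrees of freedom in place of 16, no feature was called by limma, with 953 at an unadjusted p under 0.05. The count was 11, 4 and 45 without sham array 1, 2 or 3, and 39, 6 and 7 without testosterone array 1, 2 or 3. It was also 7 without slide 4, and 11 with sham array 1 as the only sham array, a setting chosen after seeing the data in which 2 of the 28 were called. The 20 called genes that carry a full gene symbol kept their direction under every one of these settings. Their groups do not overlap, so leaving out arrays could not have changed it.

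**Figure D2:**
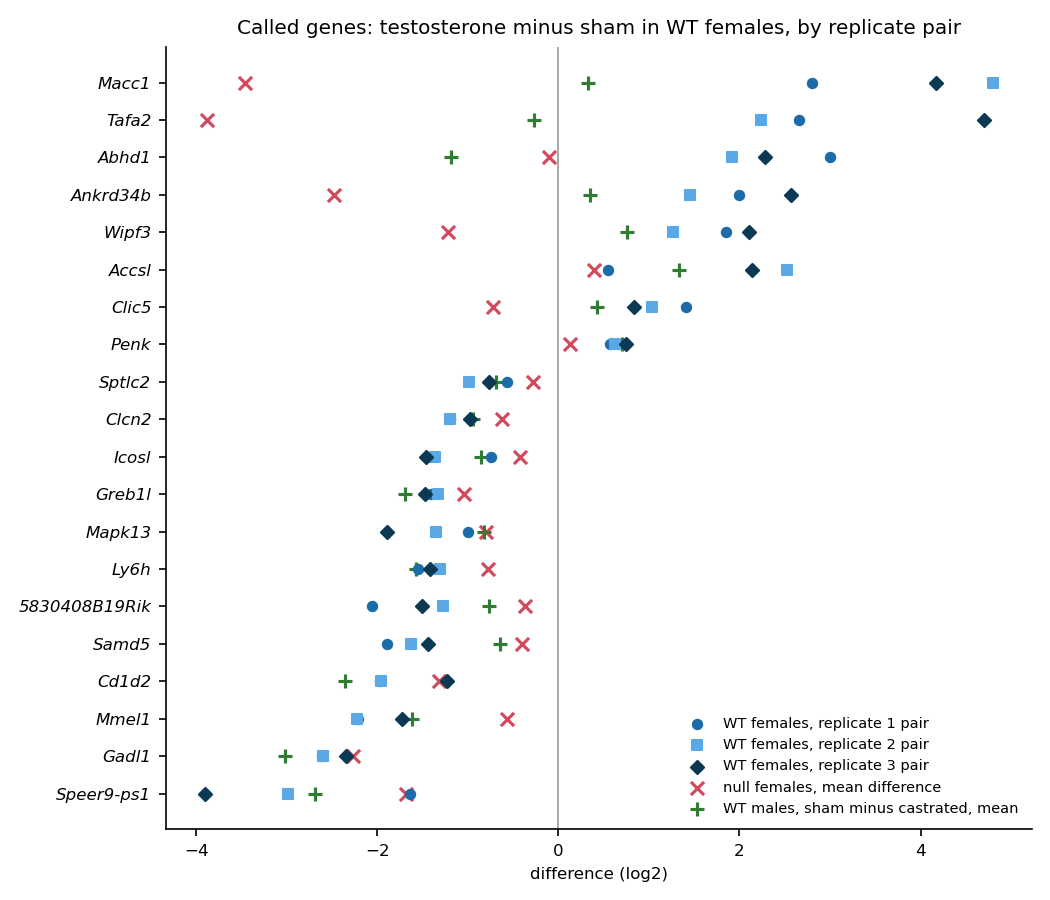
Differences of 20 of the 21 called features with a gene symbol (horizontal axis, log2 units, testosterone minus sham in WT females). Circles, squares and diamonds are the pairs of arrays with replicate numbers 1, 2 and 3, crosses the mean difference in null females given testosterone, and plus signs the mean difference of sham over castrated WT males. All 3 pairs lie on the same side of 0 for each gene, as they must where the groups do not overlap. For Macc1, Tafa2, Ankrd34b, Wipf3, Clic5 and, at -0.11, Abhd1 the null females lie on the other side.

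Mmel1, a membrane metallopeptidase related to neprilysin, fell. Its level was 1.55, 1.17 and 0.92 on sham arrays 1, 2 and 3 and -0.66, -1.06 and -0.81 on testosterone arrays 1, 2 and 3. The groups were apart by more than the whole range within either. The difference was -2.06 ± 0.25 (SE, adjusted p = 0.00266), which left the testosterone arrays at 20.4% to 26.9% of the sham mean. A second Mmel1 probe gave -1.96. In WT males the level was -1.46, -0.93 and -0.85 with testes and 0.66, 0.59 and 0.37 after castration, a difference of -1.62 that was also called. The 3 castrated null male arrays stood at -0.05, 0.42 and 0.00, so the testosterone arrays were below both the sham arrays and these.

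Gadl1, an enzyme that decarboxylates acidic amino acids, also fell. It was at -4.14, -4.31 and -4.78 on sham arrays 1, 2 and 3 and at -6.75, -6.91 and -7.12 on testosterone arrays 1, 2 and 3. None of the 3 testosterone arrays was well above background for this probe, so the level there is only a bound: at least 1.99-fold lower, where the fitted difference was -2.52 ± 0.29 (adjusted p = 0.00169). Folds given as "at least" set the brighter group's mean against the lowest signal well above background on the dimmer arrays. Gadl1 was the one gene called lower in WT females and in both other androgen comparisons. These were null females given testosterone (-2.27, adjusted p = 0.00141) and WT males with testes against castrated males (-3.02, adjusted p = 5.12e-05).

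Androgen receptors bind inverted repeats of a short half-site, so promoters of called genes were read for it. These cover 7 of the 13 called symbols that fell and 6 of the 8 that rose, and the others were not read. The 250 bases before the start site are shown for Mmel1 and Gadl1, the genes that fell with the smallest adjusted p, 5′ to 3′ on the strand of the gene, from RefSeq (GRCm38.p6), with the half-site AGAACA in capitals. They lie at chr4:154869335-154869584 (plus strand) and chr9:115909205-115909454 (plus strand).
Mmel1: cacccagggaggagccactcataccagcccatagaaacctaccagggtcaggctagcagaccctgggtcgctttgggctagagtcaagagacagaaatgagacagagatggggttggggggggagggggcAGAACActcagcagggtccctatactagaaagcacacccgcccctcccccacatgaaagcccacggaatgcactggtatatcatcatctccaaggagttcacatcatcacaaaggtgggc
Gadl1: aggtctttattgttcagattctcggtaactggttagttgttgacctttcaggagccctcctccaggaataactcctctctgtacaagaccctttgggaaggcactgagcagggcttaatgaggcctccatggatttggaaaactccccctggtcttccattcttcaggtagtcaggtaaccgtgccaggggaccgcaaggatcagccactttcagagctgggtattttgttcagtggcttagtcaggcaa
The half-site, searched on both strands, was in 16.1% of 32851 promoters of this length. It was in 1 of 7 promoters of genes that fell, that of Mmel1, where its first base lies 120 bases before the start. It was in 2 of 8 promoters of genes that rose, 1 of 3 for Accsl and that of Clic5. The full repeat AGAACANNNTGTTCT, which contains the half-site, was in none of these and in 3 promoters of all genes. A match is a description of these letters and not a binding site.

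Sptlc2, a subunit of the enzyme that starts sphingolipid synthesis, was at 0.75, 1.07 and 0.95 on sham arrays 1, 2 and 3 and at 0.19, 0.08 and 0.19 on testosterone arrays 1, 2 and 3. The groups did not overlap, and its difference of -0.77 ± 0.14 was the smallest among the genes that fell (adjusted p = 0.0397). It was also called lower in WT males with testes than in castrated males, by 0.68. In null females Sptlc2 differed by -0.28 between testosterone and sham (adjusted p = 0.833).

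Of 33 genes of cholesterol synthesis, uptake and storage reported here, 25 had a negative difference, where 53.9% of all features did. Their median was -0.26, against -0.03 over all features. Fdps, which makes farnesyl diphosphate, was at 6.27, 6.31 and 5.60 with sham and 4.79, 4.74 and 5.01 with testosterone, a difference of -1.22 that was not called (adjusted p = 0.133). Msmo1, a sterol demethylase, differed by -0.80 (adjusted p = 0.313), and Sqle, the squalene epoxidase, by -0.78 (adjusted p = 0.653). For Msmo1 and Sqle the groups overlapped, with sham array 3 the lowest of the sham arrays. In null females the median of the 33 was 0.12.

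Channel and signalling genes followed. Clcn2, a chloride channel of zona glomerulosa cells, was at 3.05, 2.88 and 2.51 on sham arrays 1, 2 and 3 and at 1.85, 1.68 and 1.53 on testosterone arrays 1, 2 and 3, without overlap. It fell by 1.12 on the log2 scale (SE 0.20, adjusted p = 0.0397), and a second Clcn2 probe gave -1.02. It was the only called member among 27 measured genes of membrane potential and calcium, whose median difference was 0.14. Kcnmb4, an auxiliary subunit of the large-conductance calcium-activated potassium channel, was at -2.46, -1.20 and -1.32 with sham and at 1.18, 0.34 and 0.63 with testosterone. Those groups did not overlap, but its difference of 2.38 ± 0.47 just missed the threshold (adjusted p = 0.0532). Kcnmb4 was at 70.1%, 39.3% and 47.9% of the castrated null male mean on testosterone arrays 1, 2 and 3. In WT sham males it was at 35.3% to 67.3%. Mapk13, the p38 delta kinase, was at 4.97, 5.20 and 4.90 with sham and at 3.98, 3.85 and 3.01 with testosterone (-1.41, adjusted p = 0.0402).

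Genes for surface proteins that were called lower are Cd1d2, Icosl and Ly6h. Cd1d2, which encodes a CD1 molecule that presents lipids, differed by -1.72 (adjusted p = 0.0397). Icosl, the ligand of the T cell costimulator ICOS, differed by -1.19 (adjusted p = 0.0342) and Ly6h, a Ly6 family surface protein, by -1.42 (adjusted p = 0.0397). For each of the 3 the highest testosterone array was below the lowest sham array. Other symbols that fell were Speer9-ps1, a pseudogene (-2.84), Samd5 (-1.65), 5830408B19Rik (-1.61) and Greb1l (-1.40). Speer9-ps1 was well above background on 2 of the 3 testosterone arrays.

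A long non-coding transcript on chromosome 17 was read by a pair of adjacent probes that both fell. The array design places it at chr17:29571806-29603008 (mm9) on the forward strand, and the files give it no gene name. The sequences are shown because nothing else identifies it. The probes lie at chr17:29602889-29602948 and chr17:29602949-29603008 and share no bases.
A_30_P01027519: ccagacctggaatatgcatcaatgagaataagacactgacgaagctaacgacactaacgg
A_30_P01030222: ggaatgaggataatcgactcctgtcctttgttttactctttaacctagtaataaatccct
Probe A_30_P01027519 was at 0.18, 0.24 and -0.14 on sham arrays 1, 2 and 3 and at -1.03, -1.40 and -1.83 on testosterone arrays 1, 2 and 3. The groups were separate, and the differences of the 2 probes were -1.52 ± 0.24 and -1.39 ± 0.23, each with an adjusted p of 0.0251. In WT males the same probes were lower with testes than after castration by 1.71 and 1.75, both called.

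Among the genes that rose, Penk and Accsl stood above both the sham arrays and the castrated null male arrays on all 3 testosterone arrays. Penk, the precursor of the enkephalin peptides of chromaffin cells, was at 1.77, 1.73 and 1.66 on sham arrays 1, 2 and 3 and at 2.34, 2.36 and 2.41 on testosterone arrays 1, 2 and 3. These are tight groups, far apart for their spread, and the rise was 0.65 ± 0.12 (adjusted p = 0.0481), or 1.57-fold. The castrated null males were at 1.85, 2.19 and 2.26. In WT males Penk was at 2.74, 2.70 and 2.55 with testes and at 1.90, 2.01 and 1.98 after castration (0.70, adjusted p = 0.00663). Penk was the only called member of 15 chromaffin cell markers, whose median difference was 0.17, and the ranges of their summed signal overlapped (637 to 1117 with sham and 785 to 1060.0 with testosterone, in multiples of the 75th percentile).

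Accsl, related to the plant enzyme that makes the ethylene precursor, was at -4.32, -5.51 and -5.23 with sham, where 1 of 3 arrays was well above background, and at -3.77, -2.98 and -3.10 with testosterone. The castrated null males were at -4.30, -4.13 and -4.73. The rise was 1.74 ± 0.28 (adjusted p = 0.0251). It was also called in WT males with testes against castrated males (1.33, adjusted p = 0.0326). The groups of Accsl did not overlap, so leaving out an array could not change the sign of its difference. The lowest value of that difference under any setting was 0.65.

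**Figure D3:**
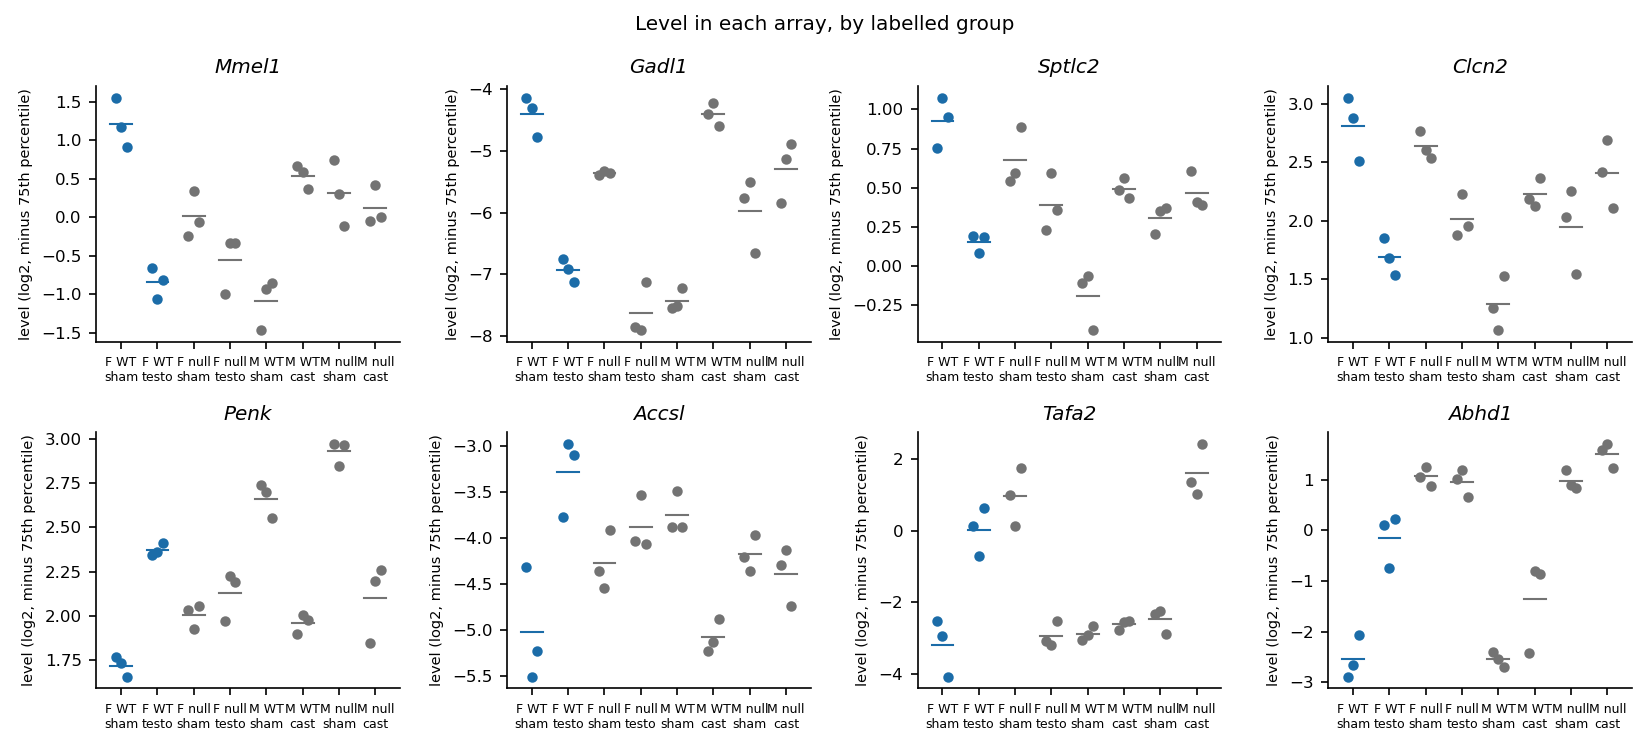
Level of 8 called genes in each array of the 8 labelled groups (vertical axes, log2 signal minus the array's 75th percentile; the line is the group mean and WT females are in blue). Mmel1, Gadl1, Sptlc2 and Clcn2 are low and Penk is high in both the testosterone-treated WT females and the sham WT males. Tafa2 and Abhd1 lie between the WT sham females and the castrated null males.

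The other 8 features that rose lay between the sham arrays and the castrated null male arrays on all 3 testosterone arrays. The share of all features in that position was not counted, so these 8 cannot be weighed against it. Tafa2, a small secreted protein of the TAFA family, was at -2.52, -2.95 and -4.07 on sham arrays 1, 2 and 3, at 0.14, -0.71 and 0.63 on testosterone arrays 1, 2 and 3, and at 1.36, 1.03 and 2.41 in castrated null males. The difference was 3.20 ± 0.44 (adjusted p = 0.00978). In null females Tafa2 went the other way, from 0.99, 0.12 and 1.74 with sham to -3.08, -3.19 and -2.52 with testosterone (-3.88, adjusted p = 6.68e-04). In WT males it was at -3.04, -2.91 and -2.66 with testes and at -2.76, -2.53 and -2.51 after castration, a difference of -0.27 with an adjusted p of 1.

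Abhd1, an alpha/beta hydrolase, was at -2.89, -2.67 and -2.07 with sham, at 0.11, -0.75 and 0.22 with testosterone and at 1.58, 1.71 and 1.23 in castrated null males. It rose by 2.40 ± 0.35 (adjusted p = 0.0126). Its probe lies 0.330 Mb from that of Kcnk3 on chromosome 5, and in null females it was high on all arrays, from 0.67 to 1.26, with either treatment. Macc1, a regulator of the MET receptor gene, was not well above background on any sham array (-5.46, -7.46 and -6.30) and was at -2.66, -2.66 and -2.13 on testosterone arrays 1, 2 and 3. It was at least 7.43-fold higher with testosterone (adjusted p = 0.0251), and the castrated null males were at -1.31, -1.05 and -0.31.

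Ankrd34b, an ankyrin repeat protein, was at -2.98, -3.08 and -2.98 with sham and at -0.98, -1.63 and -0.41 with testosterone (2.00 ± 0.31, adjusted p = 0.019), and at 0.16, 0.38 and 1.07 in castrated null males. Wipf3, a partner of the actin regulator WASP, differed by 1.74 ± 0.27 (adjusted p = 0.019), and Clic5, a chloride intracellular channel protein, by 1.09 ± 0.20 (adjusted p = 0.0397). The castrated null males were at 1.82, 1.24 and 1.78 for Wipf3 and at 3.20, 2.68 and 2.53 for Clic5. In each of these, the order of the 3 groups was sham, testosterone, castrated null male with no overlap. Null sham females were also high, at 59.5% to 106% of the castrated null male mean for Ankrd34b and 54.5% to 117% for Wipf3. For Clic5 they were at 61.6% to 96.7%, and for Macc1 lower, at 12.6% to 33.5%. Tafa2, Abhd1, Wipf3, Ankrd34b and Macc1 are 5 of the 9 genes on the list of genes high in castrated null males. Their rise is therefore no independent evidence on that list.

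The last transcript that rose is a long non-coding one on chromosome 5, placed by the array design at chr5:23195569-23218551 (mm9, reverse strand). Its 2 probes lie at chr5:23204914-23204973 and chr5:23204747-23204806, 7.72 Mb from the Kcnk3 probe, and are shown because the files give no gene name.
A_30_P01026028: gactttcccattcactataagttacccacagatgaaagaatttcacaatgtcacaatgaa
A_30_P01019583: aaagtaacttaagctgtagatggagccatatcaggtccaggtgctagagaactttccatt
The differences were 1.75 ± 0.29 for A_30_P01026028 (adjusted p = 0.0251) and 1.77 ± 0.32 for A_30_P01019583 (adjusted p = 0.0397). On testosterone arrays 1, 2 and 3 the former stood at 31.8%, 30.2% and 33.9% of the castrated null male mean, and on sham arrays 1, 2 and 3 at 7.21%, 13.8% and 8.52%. The latter stood at 35.2%, 29.3% and 38.0% on the testosterone arrays and at 6.94%, 12.8% and 11.2% on the sham arrays. High signal of these probes is not particular to castrated null males. On the same scale A_30_P01026028 was at 60.2% to 115% in null females and at 50.1% to 64.4% in null sham males. In WT males it was at 8.10% to 22.9%. A_30_P01019583 was at 66.3% or more in null females, 50.2% to 55.7% in null sham males and 7.43% to 21.3% in WT males.

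The X-zone genes were lower on average in testosterone-treated WT females, but none of the 3 was called. Akr1c18, which inactivates progesterone and is the classical X-zone marker, was at 8.53, 8.37 and 7.05 on sham arrays 1, 2 and 3 and at 6.57, 5.83 and 6.75 on testosterone arrays 1, 2 and 3. The groups did not overlap, the difference was -1.60 ± 1.75, and the adjusted p was 1. That standard error comes from the fit over all 24 arrays, in which the 3 null sham males alone were at 6.51, 7.00 and -3.65. On testosterone arrays 1, 2 and 3 Akr1c18 was at 45.6%, 27.2% and 51.6% of the castrated null male mean. In null females given testosterone it was at -3.78, -3.23 and -3.16, close to the WT males with testes at -3.27, -3.97 and -3.56. Castrated WT males were at 8.33, 8.35 and 7.82.

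Pik3c2g, a class 2 lipid kinase of the X-zone, was at 1.52, 1.63 and 0.55 with sham and at -0.30, -1.78 and -0.24 with testosterone (-2.0 ± 1.35, adjusted p = 1). Thrb, the thyroid hormone receptor beta, differed by -1.04 (adjusted p = 0.213), and its groups overlapped. The median of the 3 was -1.60 in WT females, -4.91 in null females and -8.47 in WT males. The differences between these responses were not called for Akr1c18 or Pik3c2g. The part of the castrated null male signal in the levels of these genes was not tested.

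**Figure D4:**
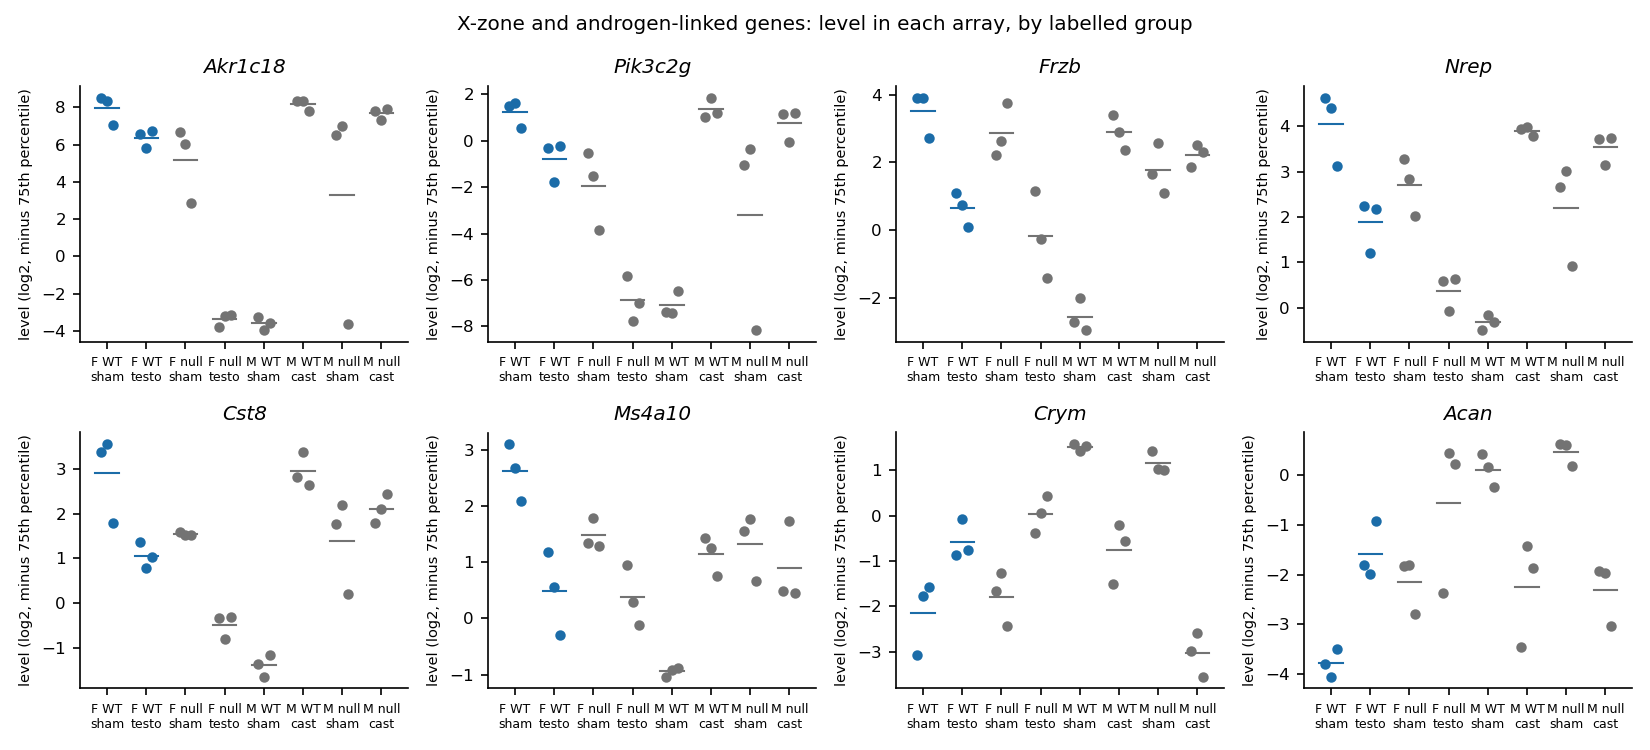
Level of 8 X-zone and androgen-linked genes in each array of the 8 labelled groups (vertical axes, log2 signal minus the array's 75th percentile; lines are group means and WT females are in blue). Akr1c18 and Pik3c2g stay well above the level of WT sham males on all 3 testosterone arrays of WT females, while in null females given testosterone they are near that level.

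Of 6 genes drawn from earlier androgen contrasts of these data as lower with androgen, Mmel1 was called and all 6 had separate groups with a negative difference, a median of -2.15, where 4.19% of all features had separate groups in that direction. Because these arrays took part in choosing the list, its direction is no independent evidence. Frzb, a secreted Wnt antagonist, was at 3.91, 3.91 and 2.72 with sham and at 1.11, 0.73 and 0.09 with testosterone (-2.87 ± 0.56, adjusted p = 0.0523). Ms4a10, a four-pass membrane protein, was at 3.10, 2.67 and 2.09 with sham and at 1.18, 0.57 and -0.29 with testosterone (-2.14, adjusted p = 0.0523). Akr1d1, the steroid 5-beta reductase, was at 4.05, 3.89 and 1.39 with sham and at -0.82, -1.26 and -1.06 with testosterone (-4.16 ± 1.20, adjusted p = 0.30). Sham array 3 was the lowest sham array for each of these genes.

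None of the 4 genes listed as higher with androgen was called. All 4 had separate groups and a positive difference (median 2.02), where 3.42% of all features did. This list was drawn from the same earlier contrasts, so its direction is no independent evidence either. Crym, a thyroid hormone binding protein, was at -3.07, -1.78 and -1.58 with sham and at -0.88, -0.08 and -0.76 with testosterone (1.57, adjusted p = 0.20). It was lower in castrated null males, at -2.98, -2.59 and -3.56. Acan, the proteoglycan aggrecan, was at -3.79, -4.06 and -3.50 with sham and at -1.81, -1.99 and -0.93 with testosterone (2.21, adjusted p = 0.252). Susd3 was at -2.46, -2.59 and 1.34 on testosterone arrays 1, 2 and 3 and Cited1 at 0.80, 0.71 and 2.96, so that testosterone array 3 set most of each difference.

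None of 13 measured genes of steroid synthesis was called, with a median of -0.21 and a range of -0.37 to 0.39. Cyp11b1, the last enzyme of corticosterone synthesis, was at 8.28, 8.28 and 8.52 with sham and at 8.14, 8.04 and 7.86 with testosterone (-0.35, adjusted p = 0.789). Cyp11b2, the aldosterone synthase, was counted with the zona glomerulosa genes and not among the 13. It was at 0.82, 0.79 and 1.61 with sham and at 2.47, 1.58 and 2.66 with testosterone (1.16, adjusted p = 0.70). Its groups overlapped, and castrated null males were at 3.29, 1.82 and 2.96. None of the 14 measured zona glomerulosa genes was called, and their median was -0.09. Cyp11b1 and Cyp11b2 are close relatives, and how far each probe reads the other transcript was not tested.

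Steroid-handling genes outside synthesis varied more, with none of 25 called. Sult1e1, the estrogen sulfotransferase, was at -4.43, -5.36 and -6.09 with sham and at -3.23, -2.60 and -2.77 with testosterone (2.43, adjusted p = 0.148). Srd5a2, a 5-alpha reductase that makes dihydrotestosterone, was at 1.66, 2.91 and 3.54 with sham and at 4.56, 4.25 and 4.83 with testosterone (1.84, adjusted p = 0.341). Among 20 other cytochrome P450 genes, again none called, Cyp2f2 was at 7.13, 6.78 and 5.20 with sham and at 3.43, 3.72 and 3.87 with testosterone (-2.70, adjusted p = 0.291). The groups of Sult1e1, Srd5a2 and Cyp2f2 did not overlap.

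The Wnt list had no called member among 37, with a median of 0.09. Dkk3, a Dickkopf family protein, was at 2.47, 2.29 and 2.09 with sham and at 3.97, 2.87 and 3.42 with testosterone (1.14, adjusted p = 0.109), while in null females it fell by 1.52 (adjusted p = 0.0127). The WT testosterone arrays stood at 61.5%, 28.7% and 41.9% of the castrated null male mean for Dkk3. Capsule and stroma genes had a median of 0.34, led by the collagen gene Col3a1 (0.96, adjusted p = 0.183). Of these 18 genes 15 were positive, against 46.1% of all features. Mast cell genes were all positive, 7 of 7, with a median of 0.55, where 46.1% of all features were positive. Cma1, the mast cell chymase, was not well above background on any sham array, and its difference was not called. On testosterone arrays 1, 2 and 3 Cma1 was at 48.6%, 25.9% and 43.3% of the castrated null male mean. No member of the endothelial, adipocyte, macrophage, red blood cell, liver, kidney, cell cycle, clock, stress or antioxidant lists was called. For the liver list this decides little, because the spread comes from a fit that includes arrays with very high liver signal. Alb, the albumin gene, was at 74813% of the WT sham female mean on testosterone array 1 of null females. On sham array 3 of WT males it was at 39864%. Apoa1 was at 33924% and 14957% on the same arrays. In WT females the summed signal of liver genes ranged from 70.9 to 104 with sham and from 50.7 to 90.6 with testosterone. The summed signal of red blood cell genes ranged from 132 to 242 with sham and from 161 to 459 with testosterone.

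The same features were read in WT males, where sham animals with testes and castrated animals share no array with the females. The WT female, WT male and null female comparisons take each feature's spread from the same fit, so their calls are not independent. Of 31045 features, 186 were called there (0.599%), 31 higher with testes (0.0999%) and 155 lower (0.499%). Of the 155, 148 (95.5%) had a negative difference in WT females, where 53.9% of all features did. Their median was -1.08. Their WT female groups did not overlap, with testosterone lower, for 101, against 4.19% of all features, and 13 were called lower in WT females too, against 0.058% of all features. Of the 31, 28 (90.3%) had a positive difference, where 46.1% of all features did, with a median of 0.70 and with Penk and Accsl called. On all 3 testosterone arrays, 56 of the 155 were below both the sham and the castrated null male arrays, and 12 of the 31 were above both. Over all features the corresponding shares were 0.825% and 0.863%. All 18 features that fell in WT females had a negative difference in WT males, and 13 of them were called.

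**Figure D5:**
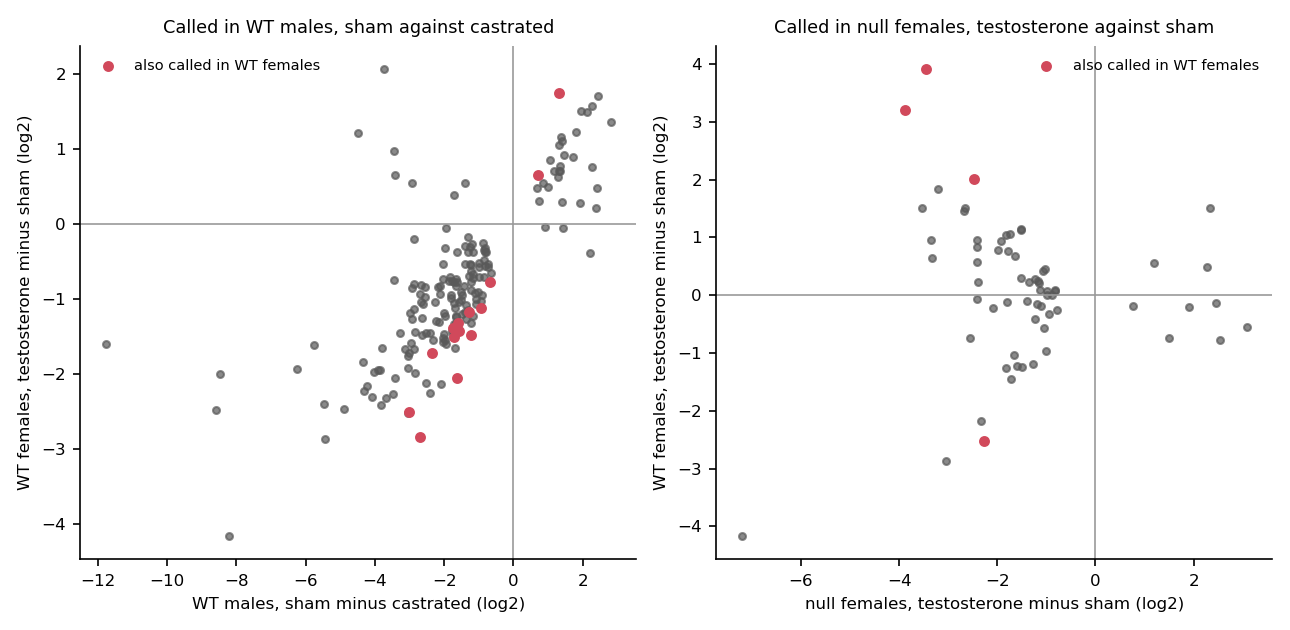
Difference in WT females (vertical axes, log2, testosterone minus sham) against the difference in WT males with testes over castrated males for the 186 features called there (left) and in null females given testosterone over sham for the 65 features called there (right). Red points were also called in WT females. On the left 148 of 155 features lower in males with testes lie below 0, and on the right 34 of 56 features lower in null females lie above 0.

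Null females given the same treatment differed from this for most of the features called in them. Of 31045 features, 65 were called in null females (0.209%), 9 higher (0.029%) and 56 lower (0.18%). Of the 56, 22 (39.3%) had a negative difference in WT females, where 53.9% of all features did. Their median was 0.15. Of the 9, 3 (33.3%) had a positive difference in WT females, where 46.1% of all features did. Gadl1 was called lower in both, and Tafa2, Ankrd34b and Macc1 were called lower in null and higher in WT females. Of all features, 0.058% were called lower and 0.0322% higher in WT females. Of the 18 features that fell in WT females, 17 also had a negative difference in null females, where 55.4% of all features did. The difference between the WT and null responses was called for 30 features (0.0966%), 26 of them more positive in WT females (0.0837%) and 4 more negative (0.0129%). The difference between the female and male responses in WT animals was called for 2 features (0.00644%). These were Abhd1 and Clec4e, a receptor of innate immune cells. Clec4e was at -0.33, -1.49 and -2.70 with sham and at 0.29, -0.58 and -0.59 with testosterone in WT females, groups that overlapped. In WT males it was at -7.60, -7.54 and -7.75 with testes and at -2.90, -2.87 and -3.63 after castration, so that the males carried most of the difference.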

How the data were processed

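The authors hybridised Cy3-labelled adrenal RNA to one-colour Agilent arrays, and per the file headers the deposited scanner intensities were read with Feature Extraction 10.7.3.1, with background subtracted and probes placed on mm9. A deposited table holds the authors' log2 values, whose normalization is not stated. It follows log2 mean signal and served as an alternative. Processed signals were scaled to the 75th percentile of each array, outlier spots left out, repeated spots averaged, and probes kept if well above background on at least 3 of 24 arrays (36832 of 55681). The brightest probe stood for each symbol. limma 3.58.1 (R 4.3.3) fitted 8 group means, prior degrees of freedom 2.24.

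The members and gene lists were chosen with earlier results of these data known. Named genes were at most 15 rises and 15 falls, called first and then by p, clone names skipped, and called or up to 4 lowest-p members of each list. Of these, the text gives those a result turns on, and 1 is not reported here. Same-numbered arrays of WT females share a slide, and their deviations from the group means correlated at 0.32, 0.32 and 0.69. The main fit did not pair the samples by number, and the replicate block did. Arrays numbered 1 and 2 also correlated across numbers (0.30 and 0.32), so only the third pair stands apart. Over all 24 arrays number 3 spans slides 3 and 4. In data simulated for WT testosterone against sham over 31045 features, 26 of 100 changes of 1 log2 unit and 70 of 100 of 2 units were recovered.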

Additional observations from a re-analysis of the deposited data

Results flagged for a closer look

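For 5 genes the response to testosterone differed between WT and null females by limma's test of the difference itself, with 3 arrays in each of the 4 groups. The WT response minus the null response was 7.38 ± 0.89 (SE) for Macc1 (adjusted p = 0.0013), 7.08 ± 0.63 for Tafa2 (adjusted p = 3.58e-05) and 4.48 ± 0.43 for Ankrd34b (adjusted p = 6.81e-05). It was 2.96 ± 0.38 for Wipf3 (adjusted p = 0.00173) and 1.82 ± 0.28 for Clic5 (adjusted p = 0.00744). On all 3 WT testosterone arrays these genes lay between the WT sham and the castrated null male levels.

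For Abhd1 the response of WT females minus that of WT males was 3.59 ± 0.49 (adjusted p = 0.0119), with a rise of 2.40 in females and a difference of -1.19 in males that was not called (adjusted p = 0.216).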

How the results depend on the processing

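The fit on the 6 arrays called 0 features, also with the replicate block (2056 at unadjusted p under 0.05) and with the Y-linked share as covariate (1492). The count for WT testosterone against sham was 94 with normexp and quantile normalization (18 higher), 43 with quantile alone (13 higher), 85 in the deposited table (16 higher), 7 without a filter (5 higher), 48 with the all-array filter (11 higher), 86 with the replicate block (20 higher), 136 with the slide block (28 higher), 66 with the RNA integrity number (20 higher), 50 with array weights (12 higher), 7 without slide 4 (1 higher) and 11 with sham array 1 as the only sham array (7 higher). Leaving out 1 array gave 4 to 45. The 20 named called genes kept their direction throughout, which leaving out arrays could not change. At most 20 and at least 0 stayed past the threshold. The cause of these shifts was not tested.

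For null females the counts were 34 without a filter, 123 with the replicate block, 150 with the slide block and 19 to 70 leaving out 1 array. For WT males they were 328 with the slide block and 81 to 131. For the WT minus null response they were 46 with the slide block and 19 to 50, with 43 under the replicate block. For the female minus male response they were 1 with normexp, 4 with the replicate block, 6 with the slide block and 0 to 4 leaving out 1 array. With 0 called by limma, 687 to 1532 features had an unadjusted p under 0.05.

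None of the named genes that changed sign was called. Leaving out 1 array, the differences ran from -0.87 to 0.31 for Aqp2, -0.30 to 2.36 for Ddx3y, -0.18 to 2.42 for Eif2s3y, -1.19 to 1.78 for Kap, -0.97 to 0.28 for Kdm5d, -0.011 to 0.77 for Slc18a2, -0.051 to 1.78 for Uty, -0.17 to 0.97 for Xist and -0.82 to 0.020 for Zp3. Without slide 4, Cd14 became -0.015, Chgb -0.076 and Kap -1.39, and with array weights Kap became -0.47. With sham array 1 as the only sham array, Aqp2 became 0.40, Birc5 -0.41, Cd14 -0.32, Chgb -0.22, H2-DMb1 -0.058, Hsp90aa1 -0.38, Kap -0.57, Kdm5d 0.57, Lyz2 -0.13, Mcm7 -0.038 and Xist -1.08.

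With 3 arrays a group, smaller changes of dim genes were beyond reach: Gadl1 and Macc1 have only a bound in 1 group.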

Other observations

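Beyond the genes above, 25 of the 30 features whose response differed between WT and null females were not called in WT females themselves. Npy1r, a neuropeptide Y receptor, differed by 5.05 ± 0.65 between the responses (adjusted p = 0.00173), with 1.84 in WT and -3.21 in null females. Wif1, a secreted Wnt inhibitor, went the other way (-3.31 ± 0.58, adjusted p = 0.0278), with -0.77 in WT and 2.54 in null females. Tafa4, a relative of Tafa2, differed by -2.58 ± 0.40 (adjusted p = 0.00824), with -0.13 in WT and 2.45 in null females. These 3 were chosen after their values were seen.

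Xist, the transcript of the inactive X chromosome, was at 188%, 39.0% and 52.5% of the null sham female mean on WT sham arrays 1, 2 and 3 and at 60.9%, 167% and 68.5% on WT testosterone arrays 1, 2 and 3.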
